A study of Homo sapiens with 24 samples.

Results

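The HOX genes of the human HOXA, HOXB, HOXC and HOXD clusters were followed in HCT116 cells given butyrate with and without depletion of ATP citrate lyase. Members are all rows of the deposited value table whose symbol starts with HOXA, HOXB, HOXC or HOXD followed by a digit. There were 26 of them among 18172 genes with a symbol: 8 of HOXA on chromosome 7, 9 of HOXB on chromosome 17, 4 of HOXC on chromosome 12 and 5 of HOXD on chromosome 2. The array annotation lists 40 HOX entries, and the other 14, among them HOXA7, HOXC6 and HOXD13, are not in the value table and are not analysed here. One member, HOXA11AS (now HOXA11-AS), is an antisense transcript, so 25 members have a place along a cluster.

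HCT116 is a human colorectal carcinoma cell line, grown here in DMEM with glucose and used by every group. The 4 siACL groups, transfected to deplete ATP citrate lyase, were untreated or given 0.5, 2 or 5 mM butyrate for 3 days, and 4 siMock control groups were handled in the same way. Each of the 8 groups held 3 Illumina arrays, 24 in all, which the labels call biological replicates. The sources used here do not give the siRNA sequences or when cells were transfected, and a single cell line limits the groups as a model.

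HOX genes encode homeodomain transcription factors that assign position along the body axis. Within each cluster the genes stand in order, so that low paralogue numbers lie at the 3' end and act in anterior tissues while high numbers lie at the 5' end and act in posterior ones. Trithorax-type complexes keep the clusters active, Polycomb complexes keep them silent, and TALE homeodomain partners such as PBX and MEIS proteins sharpen HOX binding to DNA. Adult gut epithelium keeps a positional HOX pattern, and colorectal tumours often alter it. Butyrate, a product of gut bacteria, inhibits histone deacetylases and is also burned as fuel, and ATP citrate lyase supplies cytosolic acetyl-CoA, the donor for histone acetylation.

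Sequence upstream of 4 members that moved with butyrate is shown because HOX clusters are regulated through their CG-rich DNA. HOXC4 fell, HOXA13 and HOXD8 rose, and HOXA9 fell at the lowest dose, as described further on. Each is the 200 bases before the annotated start in RefSeq (GRCh38.p14), written 5' to 3' on the gene's strand with each CG dinucleotide in capitals. The windows are chr12:54016688-54016887 on the plus strand for HOXC4, chr7:27165538-27165737 on the minus strand for HOXA9, chr7:27200092-27200291 on the minus strand for HOXA13, and chr2:176129505-176129704 on the plus strand for HOXD8.
HOXC4: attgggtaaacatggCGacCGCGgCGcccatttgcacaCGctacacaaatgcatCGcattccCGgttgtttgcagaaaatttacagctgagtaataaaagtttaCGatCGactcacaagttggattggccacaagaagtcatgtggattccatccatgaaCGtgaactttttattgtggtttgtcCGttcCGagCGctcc
HOXA9: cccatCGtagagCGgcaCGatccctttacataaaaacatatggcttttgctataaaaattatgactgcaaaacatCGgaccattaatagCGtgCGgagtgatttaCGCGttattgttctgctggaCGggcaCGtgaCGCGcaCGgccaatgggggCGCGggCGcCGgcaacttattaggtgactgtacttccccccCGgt
HOXA13: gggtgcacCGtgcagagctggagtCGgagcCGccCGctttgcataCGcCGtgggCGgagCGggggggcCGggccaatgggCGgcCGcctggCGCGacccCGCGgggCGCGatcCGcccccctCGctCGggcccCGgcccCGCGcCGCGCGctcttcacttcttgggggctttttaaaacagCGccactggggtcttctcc
HOXD8: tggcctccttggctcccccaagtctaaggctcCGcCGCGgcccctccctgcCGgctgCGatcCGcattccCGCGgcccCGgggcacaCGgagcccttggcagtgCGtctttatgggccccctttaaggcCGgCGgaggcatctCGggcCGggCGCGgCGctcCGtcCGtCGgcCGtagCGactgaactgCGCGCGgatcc
Counted over 250 bases upstream, HOXC4 had 14 CG dinucleotides, HOXA9 had 20, HOXD8 had 28 and HOXA13 had 40, against a median of 11 over the 35116 promoters of the RefSeq table. HOXA13 thus stood at percentile 98.1 of that table, HOXD8 at 85.0, HOXA9 at 68.7 and HOXC4 at 56.1. GGGCGG, searched on both strands, occurred 4 times in HOXA13 and in none of the other 3, and 42.6% of all promoters hold it. TATAA was found once in HOXA9 (18.9% of all promoters), and TTTATG, a core bound by caudal-type homeodomain proteins, once in HOXA9 and once in HOXD8 (9.64% of all promoters). These letters were searched with overlaps allowed and describe the sequence only. The table matched 14 of the 26 members, and of HOXB1 to HOXB13 only HOXB1.

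Values are normal scores, which place each gene's rank within its array on a standard normal curve with 0 at the middle. A difference of scores is therefore a shift in rank, has no fold change and does not give transcript amounts. Differences are given as mean scores of the first group minus the second ± SE from limma, and rise or fall is written of a gene whose adjusted p over all 18172 genes was under 0.05. Where the arrays of groups are said not to overlap, the share of all genes doing so was not counted. Such a statement is not separate support. A shift in rank can also follow from movement of other genes, and fewer cells of a kind or less RNA per cell cannot be told apart in these bulk samples.

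The knockdown target, ACLY, scored 1.17, 1.21 and 1.17 without butyrate, 1.13, 1.11 and 1.10 at 0.5 mM, 0.94, 0.96 and 0.96 at 2 mM, and 0.68, 0.70 and 0.67 at 5 mM in siACL cells. Its scores in siMock cells were 1.50, 1.53 and 1.53 without butyrate, 1.52, 1.50 and 1.52 at 0.5 mM, 1.35, 1.42 and 1.34 at 2 mM, and 1.34, 1.30 and 1.28 at 5 mM. Every siACL array lay below every siMock array of the same dose. Of 8 epithelial markers 6 were measured. EPCAM, KRT8, KRT19 and CDH1 stood at mean percentiles of 95.2, 97.6, 98.6 and 88.7 of the arrays, KRT18 at 59.0 and CDH17 at 11.0. Of the fibroblast list 3 of 6 were measured. Fibroblast COL1A2 and COL3A1 stood at 13.9 and 12.8, but COL1A1 at 62.9. Of leukocyte markers, LYZ stood at 9.17 and ranged over arrays from 0.164 to 31.7, and CD68 stood at 74.9 and ranged from 71.2 to 80.6. The median score of the measured epithelial markers ran over arrays from 1.31 to 1.39 in siACL at 5 mM and 1.44 to 1.53 in untreated siACL, and 1.22 to 1.24 in siMock at 5 mM and 1.45 to 1.50 in untreated siMock. EPCAM scored 1.44 to 1.54 in siACL at 5 mM and 1.86 to 1.92 untreated, and 1.33 to 1.40 and 1.79 to 1.94 in siMock. CDH1 scored 1.18 to 1.25 in siACL at 5 mM and 1.06 to 1.14 untreated, and 1.08 to 1.14 and 1.08 to 1.13 in siMock. At 5 mM 1 of the 6 was called higher and 2 lower in each arm. The median differences were -0.05 in siACL and 0.01 in siMock. Over all genes 22.7% were higher and 22.6% lower in siACL, and 25.6% and 25.2% in siMock. The fibroblast median was -1.49 to -0.86 in siACL at 5 mM and -1.18 to -0.88 in untreated siACL, and -0.75 to -0.31 in siMock at 5 mM and -1.06 to -0.30 in untreated siMock. COL1A1 scored 0.49 to 0.51 in siACL at 5 mM and -0.05 to 0.04 untreated, and 0.48 to 0.58 and 0.04 to 0.11 in siMock. At 5 mM 1 of the 3 fibroblast markers was called higher and 0 lower in each arm. LYZ scored -1.55 to -1.19 in siACL at 5 mM and -0.99 to -0.51 in untreated siACL, and -2.22 to -2.06 in siMock at 5 mM and -2.15 to -1.52 in untreated siMock. CD68 scored 0.62 to 0.71 in siACL at 5 mM and 0.56 to 0.61 in untreated siACL, and 0.73 to 0.86 in siMock at 5 mM and 0.64 to 0.69 in untreated siMock. The part of these shifts in the HOX results was not tested, nor that of the leukocyte list as a whole, which is not reported here. Spread between replicates depended on score: in 4 equal bins of genes ordered by mean score, low to high, the residual SD had medians of 0.416, 0.189, 0.0471 and 0.0333. The lowest bin holds 9 members (HOXA4, HOXB1, HOXB2, HOXB3, HOXC4, HOXC8, HOXD8, HOXD10 and HOXD11), and the highest holds 5 (HOXA5, HOXA9, HOXB5, HOXB7 and HOXB8). Whether a low-scoring member was above background is unknown.

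**Figure D1:**
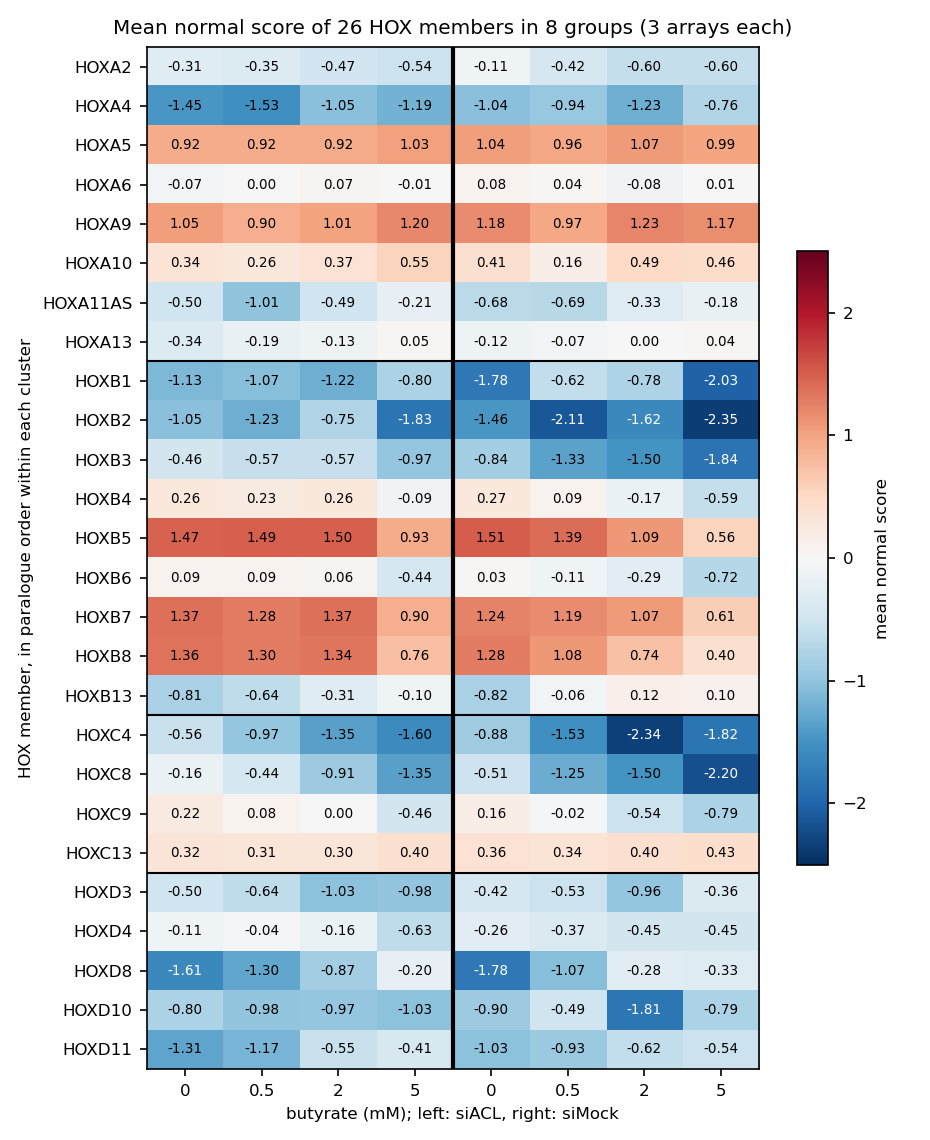
Mean normal score of each of the 26 HOX members (rows, in paralogue order within HOXA, HOXB, HOXC and HOXD) in the 8 groups (columns, butyrate in mM, siACL on the left and siMock on the right, 3 arrays each). HOXB5, HOXB7 and HOXB8 keep scores of 1.28 to 1.50 in siACL up to 2 mM and reach 0.93, 0.90 and 0.76 at 5 mM, whereas in siMock they stand at 1.09, 1.07 and 0.74 already at 2 mM and at 0.56, 0.61 and 0.40 at 5 mM.

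Most falls with butyrate were in HOXB and HOXC. By limma's F test over the 8 groups 18 of the 26 members differed, 69.2% against 60.2% of all genes tested, a share near the background. All 9 HOXB members, 5 of 8 in HOXA, 3 of 4 in HOXC and 1 of 5 in HOXD were among them. The 8 that did not pass were HOXA4, HOXA6, HOXA11AS, HOXC13, HOXD3, HOXD4, HOXD10 and HOXD11. In siACL cells 1 member was called at 0.5 mM, with 0 higher and 1 lower, where 7.24% of all genes were called, 4.79% higher and 2.45% lower. At 2 mM 4 were called in siACL, 2 higher and 2 lower, where 26.5% of all genes were, 13.7% higher and 12.8% lower. At 5 mM 16 were called, 7 higher and 9 lower, where 45.2% of all genes were, 22.7% higher and 22.6% lower. The siACL calls thus came mostly at the highest dose. The siACL count was 2 at 0.5 mM without untreated replicate 3 or 0.5 mM replicate 1, and 2 at 2 mM without untreated replicate 2 or 2 mM replicate 2. In siMock cells 9 members were called at 0.5 mM, 2 higher and 7 lower, where 22.1% of all genes were, 12% higher and 10.1% lower. The count was 5 without siMock untreated replicate 1 and 4 with only the groups compared in the fit. At 2 mM 12 were called in siMock, 3 higher and 9 lower, where 37.9% of all genes were, 18.7% higher and 19.3% lower. At 5 mM 14 were called, 3 higher and 11 lower, where 50.8% of all genes were, 25.6% higher and 25.2% lower. As shares of the 26 members these were 3.85%, 15.4% and 61.5% in siACL and 34.6%, 46.2% and 53.8% in siMock, so the siMock share at 5 mM was near the background. The median difference over members at 5 mM was -0.23 in siACL and -0.13 in siMock, beside -0.016 and -0.013 over all genes.

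The central run of the HOXB cluster, HOXB4 to HOXB8, fell with butyrate in both arms. In siACL cells 0 of the 5 passed the test at 0.5 and at 2 mM (the lowest adjusted p was 0.11, for HOXB7 at 0.5 mM), and all 5 were lower at 5 mM with a median difference of -0.54. In siMock cells 3 of the 5 were lower at 0.5 mM and all 5 at 2 and 5 mM, with median differences of -0.42 and -0.86. Of all genes 7.24% and 26.5% were called in siACL at 0.5 and 2 mM, and 22.6% were lower at 5 mM. In siMock 10.1%, 19.3% and 25.2% of all genes were lower at the 3 rising doses. The run is the central class within 1 cluster, set apart with earlier results of these data known. Over all 9 HOXB members at 5 mM 1 was higher and 5 lower in siACL, with a median difference of -0.51. In siMock 1 was higher and 7 lower, with a median of -0.86.

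HOXB5, which in the mouse acts in enteric neural crest and marks blood stem cells, had the largest F of all members (363). It scored 1.47, 1.46 and 1.47 without butyrate, 1.48, 1.54 and 1.44 at 0.5 mM, 1.50, 1.49 and 1.50 at 2 mM, and 0.91, 0.94 and 0.92 at 5 mM in siACL cells. In siMock cells HOXB5 scored 1.52, 1.50 and 1.49 without butyrate, 1.42, 1.37 and 1.37 at 0.5 mM, 1.10, 1.09 and 1.08 at 2 mM, and 0.60, 0.50 and 0.59 at 5 mM. The 9 siACL arrays up to 2 mM lay together and the 5 mM arrays lay below all of them, while in siMock the arrays of each dose lay below those of the dose before. In siACL the difference from untreated cells was 0.03 ± 0.03 (adjusted p = 0.49) at 2 mM and -0.54 ± 0.03 (adjusted p = 1.5e-11) at 5 mM. In siMock it was -0.12 ± 0.03 (adjusted p = 0.0025) at 0.5 mM and -0.42 ± 0.03 (adjusted p = 8.3e-10) at 2 mM. At 5 mM in siMock it was -0.94 ± 0.03 (adjusted p = 8.6e-15). The siMock call at 0.5 mM was lost on percentile ranks and with only the groups compared in the fit (adjusted p up to 0.073).

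HOXB8, known in mouse blood cells for holding back myeloid differentiation, scored 1.35, 1.39 and 1.35 without butyrate, 1.31, 1.33 and 1.25 at 0.5 mM, 1.36, 1.36 and 1.30 at 2 mM, and 0.75, 0.82 and 0.71 at 5 mM in siACL cells. In siMock cells HOXB8 scored 1.31, 1.28 and 1.26 without butyrate, 1.12, 1.03 and 1.11 at 0.5 mM, 0.79, 0.73 and 0.70 at 2 mM, and 0.30, 0.42 and 0.48 at 5 mM. Again the siMock arrays stepped down at every dose without overlap. In siACL the 0.5 mM arrays lay just below the untreated ones, those at 2 mM overlapped them, and those at 5 mM lay far below. Its differences from untreated cells in siACL were -0.02 ± 0.04 (adjusted p = 0.74) at 2 mM and -0.61 ± 0.04 (adjusted p = 1.7e-09) at 5 mM. They were -0.20 ± 0.04 (adjusted p = 0.002), -0.54 ± 0.04 (adjusted p = 1.2e-08) and -0.88 ± 0.04 (adjusted p = 7.1e-12) at the 3 rising doses in siMock.

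HOXB7, often raised in carcinomas, scored 1.37, 1.38 and 1.36 without butyrate, 1.27, 1.28 and 1.29 at 0.5 mM, 1.34, 1.35 and 1.40 at 2 mM, and 0.94, 0.85 and 0.90 at 5 mM in siACL cells. In siMock cells HOXB7 scored 1.20, 1.25 and 1.27 without butyrate, 1.16, 1.20 and 1.21 at 0.5 mM, 1.00, 1.06 and 1.15 at 2 mM, and 0.62, 0.64 and 0.57 at 5 mM. The siACL arrays at 0.5 mM lay below the untreated ones with a difference of -0.09 ± 0.03 (adjusted p = 0.11), which did not pass, those at 2 mM overlapped them, and those at 5 mM were lower than all others of the arm. In siMock the arrays at 0.5 mM overlapped the untreated ones and those at 2 and 5 mM lay below. HOXB7 fell by 0.47 in siACL at 5 mM (adjusted p = 1.4e-09). In siMock it fell by 0.17 at 2 mM and 0.63 at 5 mM (adjusted p = 1.9e-11). The siMock call at 2 mM was lost with only the groups compared in the fit (adjusted p = 0.053).

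HOXB4, a gene that expands blood stem cells when forced, scored 0.26, 0.25 and 0.29 without butyrate, 0.24, 0.21 and 0.23 at 0.5 mM, 0.22, 0.21 and 0.34 at 2 mM, and -0.08, -0.16 and -0.03 at 5 mM in siACL cells. In siMock cells HOXB4 scored 0.30, 0.19 and 0.32 without butyrate, 0.05, 0.19 and 0.04 at 0.5 mM, -0.14, -0.11 and -0.26 at 2 mM, and -0.66, -0.48 and -0.61 at 5 mM. In siACL the 0.5 mM arrays lay just below the untreated ones, those at 2 mM overlapped them, and those at 5 mM lay below all others. In siMock the arrays at 2 and 5 mM lay below all untreated arrays. HOXB4 fell at 5 mM in both arms, with differences of -0.35 ± 0.05 (adjusted p = 3.1e-05) in siACL and -0.86 ± 0.05 (adjusted p = 3.8e-10) in siMock. At 0.5 mM in siMock HOXB4 fell by 0.18 (adjusted p = 0.026), a call lost without any 1 of 4 arrays (untreated replicates 1 and 3, 0.5 mM replicates 1 and 3), with adjusted p up to 0.15 over all alternatives.

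HOXB6, a trunk patterning gene, scored 0.11, 0.07 and 0.10 without butyrate, 0.09, 0.12 and 0.06 at 0.5 mM, 0.07, 0.09 and 0.01 at 2 mM, and -0.38, -0.58 and -0.37 at 5 mM in siACL cells. In siMock cells HOXB6 scored 0.10, -0.04 and 0.04 without butyrate, -0.05, -0.24 and -0.04 at 0.5 mM, -0.30, -0.36 and -0.20 at 2 mM, and -1.04, -0.45 and -0.66 at 5 mM. The 5 mM arrays were lowest in both arms and did not overlap the untreated ones. HOXB6 differed by -0.54 ± 0.10 (adjusted p = 0.00026) in siACL at 5 mM, and in siMock by -0.32 ± 0.10 (adjusted p = 0.018) at 2 mM and -0.75 ± 0.10 (adjusted p = 5.7e-06) at 5 mM. The call at 2 mM was lost without untreated replicate 1 or 2 mM replicate 2 (adjusted p up to 0.07 over all alternatives).

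**Figure D2:**
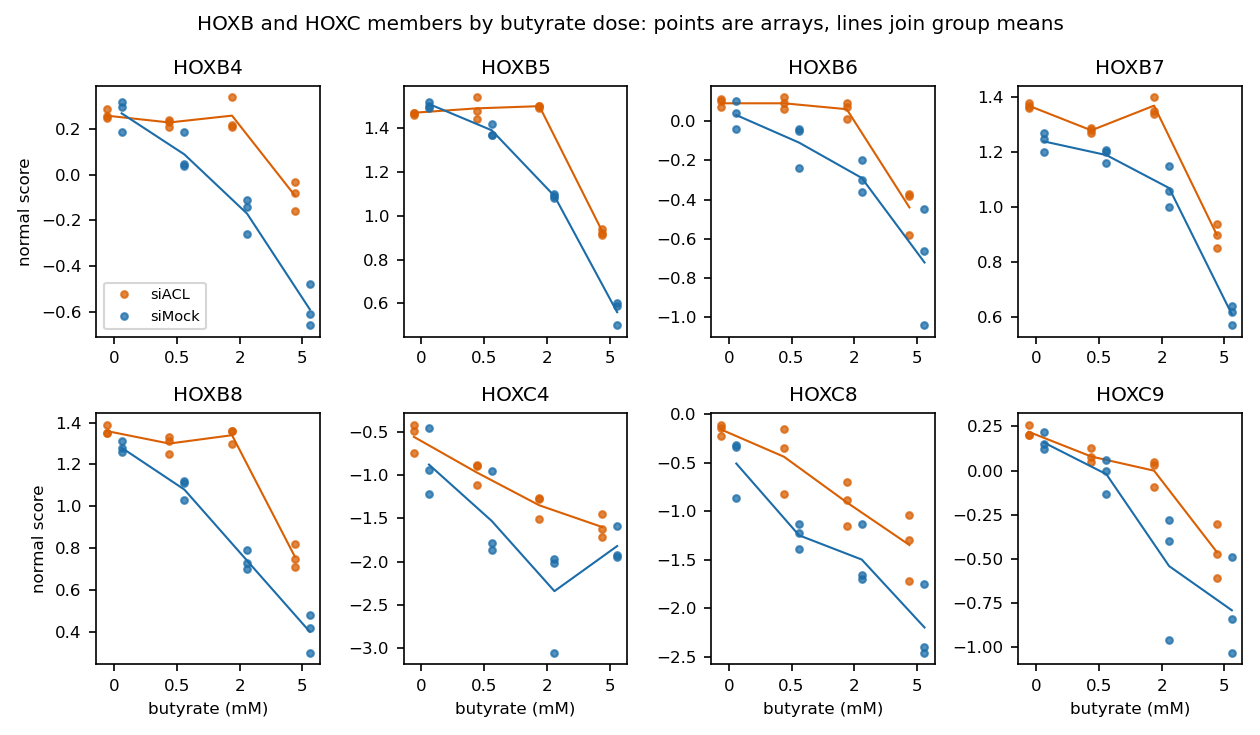
Normal score (y axis, a scale of its own in each panel) against butyrate (x axis, mM, doses evenly spaced) for HOXB4 to HOXB8 and for HOXC4, HOXC8 and HOXC9, with points for the 3 arrays of each group and lines through group means, siACL in orange left of siMock in blue. For HOXB4, HOXB5 and HOXB8 the siACL lines stay near the untreated mean up to 2 mM (HOXB5 means 1.47, 1.49 and 1.50) and drop at 5 mM, whereas the siMock lines step down at each dose (HOXB5 means 1.51, 1.39, 1.09 and 0.56).

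At the anterior end of HOXB residual SDs were larger, 0.42 to 0.47 for HOXB1, HOXB2 and HOXB3 against 0.03 to 0.13 for HOXB4 to HOXB8. HOXB1, which patterns the hindbrain, scored -1.09, -0.68 and -1.63 without butyrate, -1.63, -0.70 and -0.87 at 0.5 mM, -1.17, -0.57 and -1.93 at 2 mM, and -0.92, -0.51 and -0.95 at 5 mM in siACL cells. In siMock cells HOXB1 scored -1.64, -1.43 and -2.27 without butyrate, -0.77, -0.96 and -0.12 at 0.5 mM, -0.90, -1.24 and -0.19 at 2 mM, and -2.20, -2.23 and -1.65 at 5 mM. No siACL dose was called, with all siACL arrays between -1.93 and -0.51. In siMock the arrays at 0.5 and 2 mM lay above the untreated ones and those at 5 mM overlapped them. HOXB1 rose in siMock by 1.17 ± 0.37 (adjusted p = 0.032) at 0.5 mM and 1.01 ± 0.37 (adjusted p = 0.042) at 2 mM. Each call was lost without any 1 of 4 of its 6 arrays (untreated replicates 1 and 3 and replicates 1 and 3 of the dose), with adjusted p up to 0.14 and 0.19 over all alternatives.

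HOXB3, a hindbrain patterning gene, scored -0.42, -0.46 and -0.50 without butyrate, -0.20, -0.36 and -1.16 at 0.5 mM, -0.62, -0.44 and -0.66 at 2 mM, and -1.46, -0.83 and -0.61 at 5 mM in siACL cells. In siMock cells HOXB3 scored -0.77, -0.98 and -0.75 without butyrate, -1.63, -0.60 and -1.76 at 0.5 mM, -1.65, -1.59 and -1.26 at 2 mM, and -0.93, -2.33 and -2.27 at 5 mM. At 5 mM replicate 1 of siMock overlapped the untreated arrays and the other 2 lay far below. The siMock difference at 5 mM was -1.01 ± 0.35 (adjusted p = 0.023), and in siACL it was -0.51 ± 0.35 (adjusted p = 0.27). HOXB2, another hindbrain gene, ranged from -2.75 to -0.41 over all arrays and differed at 5 mM by -0.78 ± 0.33 (adjusted p = 0.066) in siACL and -0.89 ± 0.33 (adjusted p = 0.034) in siMock, with arrays that overlap in siMock. Both siMock calls were lost without any 1 of 4 of their 6 arrays: untreated replicates 1 and 3 and 5 mM replicates 2 and 3 for HOXB3, and untreated replicates 2 and 3 and 5 mM replicates 1 and 3 for HOXB2. Their adjusted p reached 0.13 and 0.32 over the alternatives.

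At the posterior end of the same cluster HOXB13, a gene of the hindgut and prostate that partners the androgen receptor, rose in both arms. HOXB13 scored -0.56, -1.19 and -0.68 without butyrate, -0.73, -0.50 and -0.70 at 0.5 mM, -0.35, -0.45 and -0.14 at 2 mM, and -0.19, -0.05 and -0.07 at 5 mM in siACL cells. In siMock cells HOXB13 scored -0.79, -0.93 and -0.72 without butyrate, 0.02, -0.02 and -0.17 at 0.5 mM, 0.23, 0.08 and 0.07 at 2 mM, and 0.12, 0.19 and 0.00 at 5 mM. The siACL arrays at 0.5 mM overlapped the untreated ones and those at 2 and 5 mM lay above, while in siMock all 9 treated arrays lay above the 3 untreated ones. HOXB13 rose in siACL by 0.50 ± 0.12 (adjusted p = 0.006) at 2 mM and 0.70 ± 0.12 (adjusted p = 0.00014) at 5 mM. The siACL call at 2 mM was lost with only the groups compared in the fit (adjusted p = 0.15). In siMock HOXB13 rose by 0.76 ± 0.12 (adjusted p = 0.00024) at 0.5 mM, 0.94 ± 0.12 (adjusted p = 9.3e-06) at 2 mM and 0.92 ± 0.12 (adjusted p = 5.8e-06) at 5 mM. The change in siACL minus that in siMock at 0.5 mM was -0.59 (95% interval -0.96 to -0.22, adjusted p = 0.083), which did not pass.

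In HOXC 3 of the 4 measured members fell at 5 mM in both arms, and HOXC13 was not called at any dose. Of all genes 22.6% fell at 5 mM in siACL and 25.2% in siMock. HOXC8, a trunk gene that shapes vertebrae and ribs, scored -0.23, -0.11 and -0.14 without butyrate, -0.82, -0.35 and -0.15 at 0.5 mM, -0.70, -1.15 and -0.89 at 2 mM, and -1.04, -1.30 and -1.72 at 5 mM in siACL cells. In siMock cells HOXC8 scored -0.32, -0.34 and -0.87 without butyrate, -1.23, -1.39 and -1.13 at 0.5 mM, -1.13, -1.66 and -1.70 at 2 mM, and -2.40, -2.46 and -1.75 at 5 mM. The arrays at 2 and 5 mM lay below the untreated ones in each arm. HOXC8 differed in siACL by -0.75 ± 0.23 (adjusted p = 0.02) at 2 mM and -1.19 ± 0.23 (adjusted p = 0.00029) at 5 mM. In siMock it differed by -0.74 ± 0.23 (adjusted p = 0.026), -0.99 ± 0.23 (adjusted p = 0.0021) and -1.69 ± 0.23 (adjusted p = 5.3e-06) at the 3 rising doses. Without any 1 of 4 arrays (untreated replicates 1 and 2, 0.5 mM replicates 1 and 2) the siMock call at 0.5 mM was lost (adjusted p up to 0.099 over all alternatives). The siACL call at 2 mM was lost without untreated replicate 2 or 3 or 2 mM replicate 2 (up to 0.088 over all alternatives).

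HOXC9, which sets the thoracic identity of motor neurons in the mouse, scored 0.26, 0.20 and 0.20 without butyrate, 0.13, 0.08 and 0.05 at 0.5 mM, 0.03, -0.09 and 0.05 at 2 mM, and -0.30, -0.61 and -0.47 at 5 mM in siACL cells. In siMock cells HOXC9 scored 0.22, 0.15 and 0.12 without butyrate, 0.00, 0.06 and -0.13 at 0.5 mM, -0.28, -0.96 and -0.40 at 2 mM, and -0.49, -0.84 and -1.03 at 5 mM. At every dose of both arms the arrays lay below the untreated ones, though HOXC9 did not pass at 0.5 mM in either arm or at 2 mM in siACL. The differences were -0.68 ± 0.14 (adjusted p = 0.0006) in siACL at 5 mM, and -0.71 ± 0.14 (adjusted p = 0.00057) at 2 mM and -0.95 ± 0.14 (adjusted p = 1.6e-05) at 5 mM in siMock. The siMock call at 2 mM was lost with only the groups compared in the fit (adjusted p = 0.052). At 2 mM in siACL the difference was -0.22 ± 0.14 (adjusted p = 0.29).

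HOXC4, active in lymphoid cells, scored -0.42, -0.49 and -0.75 without butyrate, -0.90, -1.11 and -0.89 at 0.5 mM, -1.51, -1.27 and -1.28 at 2 mM, and -1.62, -1.72 and -1.45 at 5 mM in siACL cells. In siMock cells HOXC4 scored -1.22, -0.46 and -0.94 without butyrate, -1.87, -1.79 and -0.95 at 0.5 mM, -1.97, -2.02 and -3.05 at 2 mM, and -1.92, -1.59 and -1.95 at 5 mM. Its siACL arrays at every dose lay below the untreated ones, with those at 2 and 5 mM overlapping each other, and in siMock the 2 mM arrays held the lowest score of all, -3.05. The differences were -0.80 ± 0.27 (adjusted p = 0.034) at 2 mM and -1.04 ± 0.27 (adjusted p = 0.0035) at 5 mM in siACL, and -1.47 ± 0.27 (adjusted p = 0.00023) at 2 mM and -0.94 ± 0.27 (adjusted p = 0.0062) at 5 mM in siMock. The siACL call at 2 mM was lost without any 1 of 5 of its 6 arrays, the exception being untreated replicate 3 (adjusted p up to 0.11 over all alternatives). HOXC13, needed for hair keratins and named as the HOXC member with the highest mean score, scored 0.32, 0.29 and 0.35 without butyrate, 0.30, 0.29 and 0.33 at 0.5 mM, 0.30, 0.32 and 0.29 at 2 mM, and 0.40, 0.35 and 0.46 at 5 mM in siACL cells. In siMock cells HOXC13 scored 0.37, 0.35 and 0.36 without butyrate, 0.38, 0.29 and 0.35 at 0.5 mM, 0.41, 0.43 and 0.34 at 2 mM, and 0.52, 0.30 and 0.47 at 5 mM. Arrays of all doses overlapped the untreated ones, and the differences at 5 mM were 0.08 ± 0.04 (adjusted p = 0.14) in siACL and 0.07 ± 0.04 (adjusted p = 0.18) in siMock. A score also depends on the probe, so places of different genes are not compared as transcript levels.

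In HOXA 4 of 8 members rose in siACL at 5 mM and 0 fell, and in siMock at 5 mM 1 rose and 1 fell. Of all genes 22.7% rose and 22.6% fell in siACL, and 25.6% and 25.2% in siMock, so the siMock counts of HOXA lay below the background. HOXA9, a regulator of blood progenitors and a known target of MLL, scored 0.99, 1.08 and 1.08 without butyrate, 0.90, 0.90 and 0.92 at 0.5 mM, 1.01, 1.01 and 1.02 at 2 mM, and 1.21, 1.17 and 1.21 at 5 mM in siACL cells. In siMock cells HOXA9 scored 1.24, 1.17 and 1.14 without butyrate, 0.96, 0.96 and 0.98 at 0.5 mM, 1.25, 1.23 and 1.20 at 2 mM, and 1.16, 1.18 and 1.17 at 5 mM. In both arms the 0.5 mM arrays were the lowest and overlapped no other group of the arm. HOXA9 fell at 0.5 mM by 0.15 in siACL (adjusted p = 0.0016) and by 0.22 in siMock (adjusted p = 1.1e-05). The siACL call at 0.5 mM was lost with only the groups compared in the fit (adjusted p = 0.1). At 5 mM HOXA9 was higher than untreated in siACL by 0.15 ± 0.03 (adjusted p = 0.00015). The siMock difference at 5 mM was -0.01 ± 0.03 (adjusted p = 0.74).

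HOXA10, a uterine and blood cell regulator, scored 0.39, 0.36 and 0.28 without butyrate, 0.31, 0.24 and 0.24 at 0.5 mM, 0.34, 0.37 and 0.41 at 2 mM, and 0.58, 0.49 and 0.58 at 5 mM in siACL cells. In siMock cells HOXA10 scored 0.43, 0.39 and 0.42 without butyrate, 0.12, 0.17 and 0.19 at 0.5 mM, 0.50, 0.48 and 0.48 at 2 mM, and 0.46, 0.46 and 0.46 at 5 mM. The siMock arrays at 0.5 mM lay below every other array of the member, and the siACL arrays at 5 mM lay above all other siACL arrays. At 0.5 mM HOXA10 differed by -0.08 ± 0.03 (adjusted p = 0.16) in siACL and -0.25 ± 0.03 (adjusted p = 1.5e-05) in siMock. At 5 mM it rose by 0.21 ± 0.03 (adjusted p = 2.7e-05) in siACL, and the siMock difference was 0.05 ± 0.03 (adjusted p = 0.2).

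HOXA5, a lung and gut patterning gene, scored 0.88, 0.88 and 0.99 without butyrate, 0.91, 0.95 and 0.90 at 0.5 mM, 0.96, 0.94 and 0.87 at 2 mM, and 1.06, 0.97 and 1.05 at 5 mM in siACL cells. In siMock cells HOXA5 scored 1.09, 1.04 and 0.99 without butyrate, 0.94, 0.98 and 0.97 at 0.5 mM, 1.09, 1.07 and 1.05 at 2 mM, and 1.02, 0.98 and 0.98 at 5 mM. Its whole range over arrays was narrow, 0.87 to 1.09, and the siACL arrays at 5 mM overlapped the untreated ones. The rise in siACL at 5 mM was 0.11 ± 0.03 (adjusted p = 0.013), a call lost without any 1 of 4 arrays (untreated replicates 1 and 2, 5 mM replicates 1 and 3; adjusted p up to 0.11 over all alternatives). HOXA13, which patterns digits, hindgut and urogenital tract, scored -0.30, -0.38 and -0.34 without butyrate, -0.29, -0.09 and -0.20 at 0.5 mM, -0.05, -0.19 and -0.15 at 2 mM, and 0.07, 0.05 and 0.03 at 5 mM in siACL cells. In siMock cells HOXA13 scored -0.11, -0.08 and -0.18 without butyrate, -0.09, -0.12 and 0.01 at 0.5 mM, -0.01, -0.01 and 0.04 at 2 mM, and -0.05, 0.06 and 0.10 at 5 mM. The siACL arrays of every dose lay above the untreated siACL arrays, and in siMock those at 2 and 5 mM did. HOXA13 rose in siACL by 0.22 ± 0.05 (adjusted p = 0.0038) at 2 mM and 0.39 ± 0.05 (adjusted p = 5e-06) at 5 mM, and in siMock by 0.16 ± 0.05 (adjusted p = 0.013) at 5 mM. The siMock call was lost without untreated replicate 3 or 5 mM replicate 3 (adjusted p up to 0.07 over all alternatives).

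HOXA2, which patterns the hindbrain and branchial arches, scored -0.23, -0.44 and -0.27 without butyrate, -0.47, -0.29 and -0.29 at 0.5 mM, -0.50, -0.43 and -0.47 at 2 mM, and -0.39, -0.42 and -0.80 at 5 mM in siACL cells. In siMock cells HOXA2 scored -0.08, -0.03 and -0.23 without butyrate, -0.30, -0.45 and -0.52 at 0.5 mM, -0.63, -0.68 and -0.48 at 2 mM, and -0.74, -0.44 and -0.62 at 5 mM. All treated siMock arrays lay below the untreated ones, and the siACL arrays overlapped at each dose. The siMock differences were -0.31 ± 0.10 (adjusted p = 0.038), -0.48 ± 0.10 (adjusted p = 0.0011) and -0.49 ± 0.10 (adjusted p = 0.00063) at the 3 rising doses, and the siACL difference at 5 mM was -0.23 ± 0.10 (adjusted p = 0.09). The call at 0.5 mM was lost without any 1 of 4 arrays (untreated replicates 1 and 2, 0.5 mM replicates 2 and 3; adjusted p up to 0.14 over all alternatives). HOXA4 ranged from -2.08 to -0.40 over all arrays, HOXA6 from -0.33 to 0.14 and the antisense transcript HOXA11AS from -1.96 to -0.03. These 3 passed in none of the 13 comparisons.

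In HOXD 1 of 5 members, HOXD8, passed the F test, beside 60.2% of all genes. HOXD8, a trunk gene, scored -1.21, -1.43 and -2.20 without butyrate, -1.17, -1.48 and -1.25 at 0.5 mM, -0.61, -1.05 and -0.97 at 2 mM, and -0.25, -0.17 and -0.18 at 5 mM in siACL cells. In siMock cells HOXD8 scored -2.42, -0.81 and -2.10 without butyrate, -0.36, -1.11 and -1.75 at 0.5 mM, -0.35, -0.39 and -0.11 at 2 mM, and -0.15, -0.59 and -0.24 at 5 mM. Treated arrays at 2 and 5 mM lay above the untreated ones in both arms, and the untreated siMock arrays were spread from -2.42 to -0.81. HOXD8 rose by 1.41 ± 0.36 (adjusted p = 0.0032) in siACL at 5 mM. In siMock it rose by 1.49 ± 0.36 (adjusted p = 0.0027) at 2 mM and 1.45 ± 0.36 (adjusted p = 0.0023) at 5 mM. Both siMock calls were lost with only the groups compared in the fit (adjusted p = 0.068 and 0.056).

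HOXD11, a forearm patterning gene, scored -1.15, -1.90 and -0.89 without butyrate, -1.19, -1.02 and -1.29 at 0.5 mM, -0.66, -0.61 and -0.40 at 2 mM, and -0.37, -0.56 and -0.30 at 5 mM in siACL cells. In siMock cells HOXD11 scored -1.18, -1.65 and -0.26 without butyrate, -0.99, -1.24 and -0.56 at 0.5 mM, -0.50, -0.52 and -0.84 at 2 mM, and -0.28, -0.32 and -1.03 at 5 mM. The siACL arrays at 2 and 5 mM lay above the untreated ones, and all siMock groups overlapped. HOXD11 differed at 5 mM by 0.90 ± 0.30 (adjusted p = 0.021) in siACL and 0.49 ± 0.30 (adjusted p = 0.2) in siMock, and the siACL call was lost without untreated replicate 2 or 5 mM replicate 1 or 3 (adjusted p up to 0.13 over all alternatives). HOXD4, named as the HOXD member with the highest mean score, scored -0.10, -0.06 and -0.18 without butyrate, -0.04, -0.11 and 0.02 at 0.5 mM, -0.37, -0.03 and -0.09 at 2 mM, and -0.94, -0.24 and -0.70 at 5 mM in siACL cells. In siMock cells HOXD4 scored -0.12, -0.54 and -0.13 without butyrate, -0.50, -0.36 and -0.26 at 0.5 mM, -0.21, -0.21 and -0.95 at 2 mM, and -0.38, -0.54 and -0.44 at 5 mM. Only the siACL arrays at 5 mM lay wholly below their untreated ones. The difference there was -0.52 ± 0.18 (adjusted p = 0.029), lost without any 1 of 4 arrays (untreated replicates 1 and 2, 5 mM replicates 1 and 3; adjusted p up to 0.15 over all alternatives), and HOXD4 and HOXD11 did not pass the F test over the 8 groups. HOXD3 ranged from -1.72 to -0.13 and HOXD10 from -2.80 to 0.06, and neither passed in any of the 13 comparisons.

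**Figure D3:**
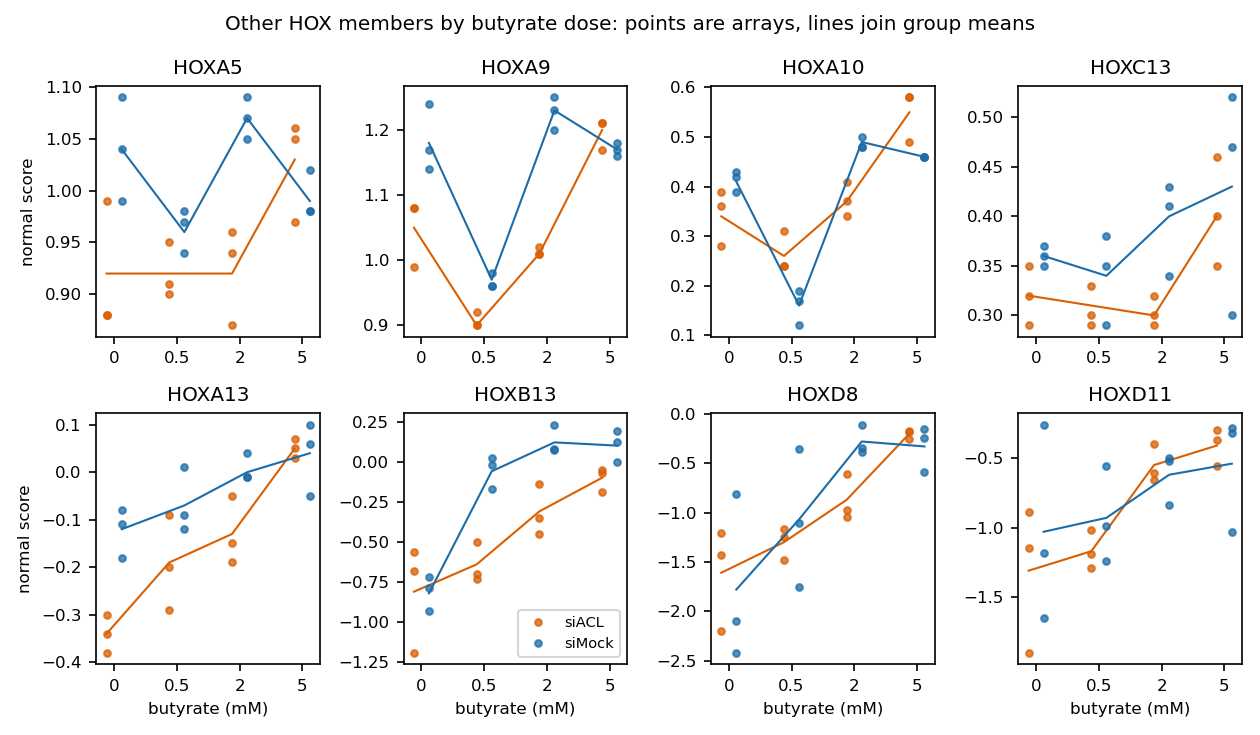
Normal score (y axis, a scale of its own in each panel) against butyrate (x axis, mM, doses evenly spaced) for HOXA5, HOXA9, HOXA10, HOXC13, HOXA13, HOXB13, HOXD8 and HOXD11, with points for the 3 arrays of each group and lines through group means, siACL in orange left of siMock in blue. HOXA9 and HOXA10 have their lowest means at 0.5 mM (HOXA9 0.90 in siACL and 0.97 in siMock), and the HOXA13, HOXB13 and HOXD8 means at 5 mM lie above the untreated ones in both arms.

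The arms were compared directly at each dose to ask where depletion of ATP citrate lyase altered HOX scores. Without butyrate siACL differed from siMock in 4 members, 1 higher and 3 lower, where 6.31% of all genes were called, 3.7% higher and 2.61% lower. The count was 1 without siMock replicate 1 or siACL replicate 2, and 2 without siMock replicate 2 or siACL replicate 1. HOXB7 was higher by 0.13 ± 0.03 (adjusted p = 0.023), and HOXA13 (-0.22 ± 0.05), HOXA9 (-0.13 ± 0.03) and HOXA5 (-0.13 ± 0.03) were lower. At 0.5 mM 5 members differed, 4 higher and 1 lower, where 17.7% of all genes were called, 9.26% higher and 8.42% lower. HOXC8 (0.81 ± 0.23), HOXB8 (0.21 ± 0.04), HOXB5 (0.10 ± 0.03) and HOXA10 (0.10 ± 0.03) were higher in siACL and HOXB13 (-0.59 ± 0.12) lower. At 2 mM 11 differed, 7 higher and 4 lower, where 19.1% of all genes were called, 10.6% higher and 8.52% lower. All 5 of HOXB4 to HOXB8 were higher in siACL there, by 0.60 ± 0.04 for HOXB8, 0.43 ± 0.05 for HOXB4, 0.41 ± 0.03 for HOXB5, 0.34 ± 0.10 for HOXB6 and 0.30 ± 0.03 for HOXB7. HOXC4 (0.99 ± 0.27) and HOXC9 (0.54 ± 0.14) were higher too, while HOXB13 (-0.44 ± 0.12), HOXA9 (-0.21 ± 0.03), HOXA5 (-0.14 ± 0.03) and HOXA10 (-0.11 ± 0.03) were lower. At 5 mM 6 differed, 6 higher and 0 lower in siACL, where 13.7% of all genes were called, 8.8% higher and 4.91% lower. They were HOXB1 (1.23 ± 0.37), HOXC8 (0.85 ± 0.23), HOXB4 (0.49 ± 0.05), HOXB5 (0.36 ± 0.03), HOXB8 (0.36 ± 0.04) and HOXB7 (0.29 ± 0.03). The arrays of the 2 arms overlapped for none of these calls, though for HOXA5 without butyrate the nearest arrays both round to 0.99. With 3 arrays per group a call leaves little room for overlap, so this is not separate support. The share of genes without overlap was not counted over all genes.

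Of these 26 calls between the arms, 13 held without each array: HOXA9 without butyrate, HOXB13 and HOXB8 at 0.5 mM, HOXA5, HOXA9, HOXB4, HOXB5, HOXB7 and HOXB8 at 2 mM and HOXB4, HOXB5, HOXB7 and HOXB8 at 5 mM. Some of these were lost with only the groups compared in the fit. They were HOXA9 without butyrate (adjusted p = 0.22), HOXA5 at 2 mM (0.092) and HOXB8 at 5 mM (0.056). The other 13 were lost without a single array, named here with the highest adjusted p over all alternatives in brackets. In untreated cells the lost calls were HOXA13 without siACL replicate 2 or siMock replicate 1 or 2 (0.11), HOXA5 without siACL replicate 1 or 2 or siMock replicate 1 or 2 (0.25) and HOXB7 without siACL replicate 1, 2 or 3 or siMock replicate 1 (0.14). At 0.5 mM the lost calls were HOXA10 without siACL replicate 1 or siMock replicate 1 or 2 (0.16), HOXB5 without siACL replicate 2 (0.14) and HOXC8 without siACL replicate 2 or 3 or siMock replicate 2 (0.096). At 2 mM the lost calls were HOXA10 without siACL replicate 1 or siMock replicate 1 (0.1), HOXB13 without siACL replicate 1 or 2 or siMock replicate 1 (0.09), HOXB6 without siACL replicate 1 or 2 or siMock replicate 1 or 2 (0.086), HOXC4 without siMock replicate 3 (0.29) and HOXC9 without siMock replicate 2 (0.17). At 5 mM the lost calls were HOXB1 without siACL replicate 1, 2 or 3 or siMock replicate 1 or 2 (0.18) and HOXC8 without siACL replicate 1 or 2 or siMock replicate 1 or 2 (0.41).

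Whether the response to butyrate itself differed between the arms was tested as the siACL response (butyrate minus untreated) less the siMock response. A positive value means that the siACL response was the less negative or the more positive of the pair. At 0.5 mM 2 members passed, 2 positive and 0 negative, where 3.1% of all genes passed, 1.39% positive and 1.72% negative. At 2 mM 4 passed, 4 positive and 0 negative, where 6.19% of all genes passed, 3.46% positive and 2.73% negative. At 5 mM 7 passed, 7 positive and 0 negative, where 8.85% of all genes passed, 5.5% positive and 3.35% negative. These differences and the separate tests of each dose share the same untreated arrays. HOXB5 had 0.14 ± 0.04 (adjusted p = 0.044) at 0.5 mM, 0.45 ± 0.04 (adjusted p = 9.4e-07) at 2 mM and 0.40 ± 0.04 (adjusted p = 2.1e-06) at 5 mM. HOXB8 had 0.52 ± 0.06 (adjusted p = 3.3e-05) at 2 mM and 0.28 ± 0.06 (adjusted p = 0.0056) at 5 mM, and HOXB4 0.43 ± 0.08 (adjusted p = 0.0025) at 2 mM and 0.50 ± 0.08 (adjusted p = 0.00046) at 5 mM. Untreated means of these 3 lay close in the arms, at 1.47 in siACL and 1.51 in siMock for HOXB5, 1.36 and 1.28 for HOXB8, and 0.26 and 0.27 for HOXB4. HOXB7 had 0.17 ± 0.05 (adjusted p = 0.033) at 2 mM and 0.16 ± 0.05 (adjusted p = 0.035) at 5 mM. HOXB6 did not pass, with 0.28 at 2 mM (95% interval -0.02 to 0.59).

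In HOXA the difference between the arms' changes passed for HOXA10 at 0.5 mM (0.17 ± 0.04, adjusted p = 0.044) and for 3 members at 5 mM: HOXA9 (0.16 ± 0.04, adjusted p = 0.011), HOXA10 (0.16 ± 0.04, adjusted p = 0.035) and HOXA5 (0.16 ± 0.05, adjusted p = 0.047). For HOXA9 and HOXA5 the untreated siACL arrays lay below the untreated siMock arrays, whereas at 5 mM the arrays of the arms overlapped. Of the 13 calls in these comparisons, HOXB4, HOXB5 and HOXB8 at 2 and 5 mM and HOXA9 at 5 mM held without each array. That of HOXA9 was lost with only the groups compared in the fit (adjusted p = 0.095). The count at 0.5 mM was 0 or 1 without each array, and that at 5 mM was 4 without 5 mM replicate 1 of siMock or replicate 1 or 3 of siACL. The other 6 were lost without most single arrays of the 12, the highest adjusted p over all alternatives standing in brackets. HOXA10 at 0.5 mM was lost without any 1 of 10, all but siACL untreated replicate 1 and siMock 0.5 mM replicate 3 (0.14). HOXB5 at 0.5 mM was lost without any 1 of 10, all but siACL 0.5 mM replicate 3 and siMock 0.5 mM replicate 1 (0.32). HOXB7 at 2 mM was lost without any 1 of 9, all but siACL 2 mM replicate 1, siMock 2 mM replicate 3 and siMock untreated replicate 1 (0.14). HOXA10 at 5 mM was lost without any 1 of 8, all but siACL 5 mM replicate 2, siACL untreated replicates 1 and 2 and siMock untreated replicate 2 (0.11). HOXA5 at 5 mM was lost without any 1 of 9, all but siACL 5 mM replicate 2, siACL untreated replicate 3 and siMock untreated replicate 3 (0.15). HOXB7 at 5 mM was lost without any 1 of 9, all but siACL 5 mM replicate 2, siMock 5 mM replicate 2 and siMock untreated replicate 1 (0.092). None of the 4 HOXC members passed at any dose (0 of 4 at each). The interval for HOXC9 at 2 mM ran from 0.07 to 0.91 (adjusted p = 0.18) and that for HOXC8 at 5 mM from -0.18 to 1.18, both of which hold the HOXB4 value at that dose.

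**Figure D4:**
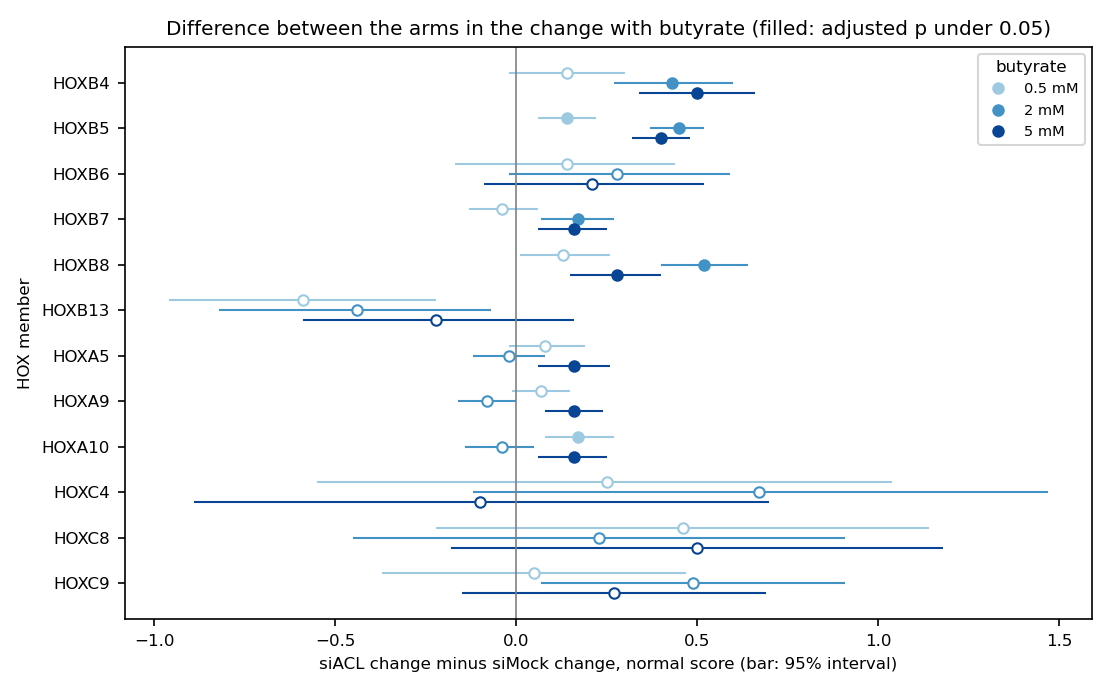
The siACL response to butyrate less the siMock response (x axis, normal score, with 95% intervals as bars and a line at 0) for 12 HOX members (y axis), in rising shades of blue for 0.5, 2 and 5 mM, filled where the adjusted p was under 0.05. HOXB4, HOXB5 and HOXB8 lie at 0.43, 0.45 and 0.52 at 2 mM with intervals clear of 0, and the intervals of HOXC4, HOXC8 and HOXC9 are wider.

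Position along the clusters was described by the paralogue number. At 5 mM in siACL 0 of 5 anterior members (paralogues 1 to 3) rose and 0 fell, 2 of 12 central members (4 to 8) rose and 8 fell, and 5 of 8 posterior members (9 to 13) rose and 1 fell. In siMock at 5 mM the counts were 0 and 3 of 5 anterior, 1 and 7 of 12 central, and 2 and 1 of 8 posterior members. Beside these, 22.7% of all genes rose and 22.6% fell in siACL, and 25.6% and 25.2% in siMock, so the posterior siMock counts were at or below the background. Median differences of anterior, central and posterior members at 5 mM were -0.48, -0.49 and 0.18 in siACL. In siMock they were -0.49, -0.69 and 0.09. The anterior members HOXB1, HOXB2, HOXB3 and HOXD3 had residual SDs of 0.4 to 0.47, so a lack of calls there does not show a lack of shift. Posterior risers in siACL at 5 mM were HOXA9, HOXA10, HOXA13, HOXB13 and HOXD11, and HOXC9 was the one that fell. Over the 25 members with a number, Spearman's rho between the number and the difference at 5 mM was 0.36 in siACL and 0.45 in siMock, as a description over genes that share arrays and differ in spread. Members of one class moved both ways, also within a cluster. Among paralogues 4 to 8, HOXB4 to HOXB8, HOXC4, HOXC8 and HOXD4 fell in siACL at 5 mM while HOXA5 and HOXD8 rose. HOXD4 and HOXD8 thus went opposite ways within HOXD, and HOXA4 and HOXA6 were not called. The HOXA5 and HOXD4 calls were each lost without any 1 of 4 arrays. Differences at 5 mM in the arms, which share no arrays, ran alike, with rho = 0.87 over the 26 members and 0.67 over all genes.

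**Figure D5:**
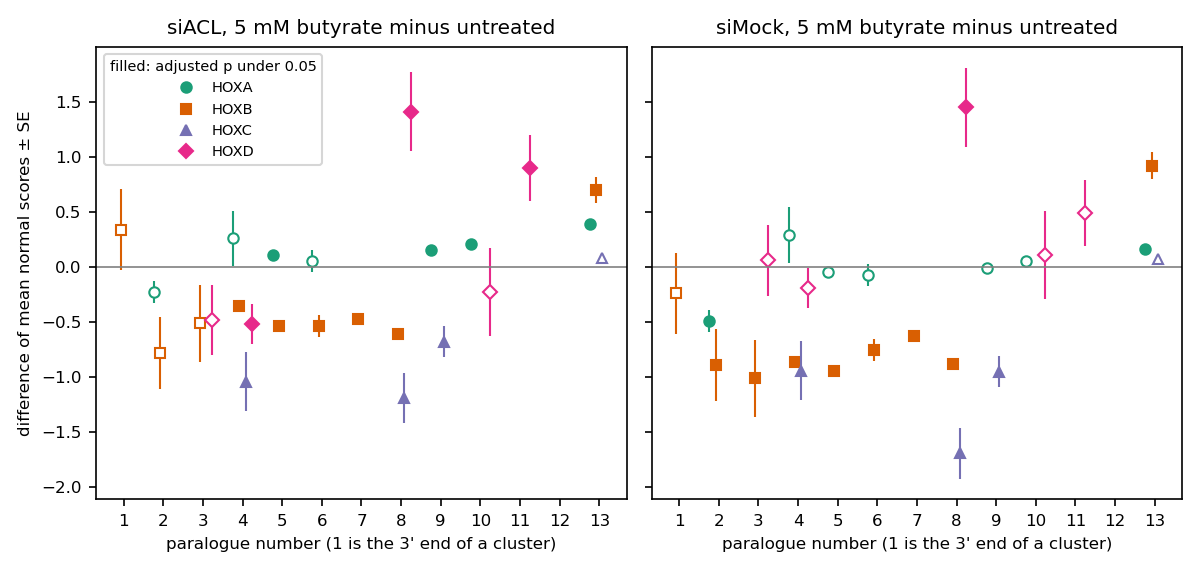
Difference of mean normal scores, 5 mM butyrate minus untreated, ± SE (y axis) against paralogue number (x axis, with 1 at the 3' end), for siACL on the left and siMock on the right, with HOXA as circles, HOXB as squares, HOXC as triangles and HOXD as diamonds, filled where the adjusted p was under 0.05. HOXB4 to HOXB8 and the HOXC members 4, 8 and 9 lie below 0 in both panels, and the members numbered 13 lie above 0 (HOXB13 at 0.70 in siACL and 0.92 in siMock).

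Genes that work with or on HOX genes were counted list by list at 5 mM. For reference, 22.7% of all genes were called higher and 22.6% lower in siACL, and 25.6% and 25.2% in siMock. Of the TALE cofactors 8 of 11 were measured: 3 rose and 3 fell in siACL, and 4 rose and 3 fell in siMock (medians -0.03 and 0.01). PBX3, a HOX partner, rose by 0.43 ± 0.03 in siACL and 0.29 ± 0.03 in siMock, whereas its relative PBX2 had -0.31 ± 0.04 and -0.48 ± 0.04. MEIS3, of the MEIS family, rose by 0.36 ± 0.07 in siACL and 0.33 ± 0.07 in siMock, and PKNOX1, a MEIS-related PBX partner, differed by -0.17 ± 0.07 and -0.57 ± 0.07.

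Of the MLL and COMPASS genes, which encode histone methylases that keep HOX genes active and their partners, 15 of 16 were measured. In siACL 2 rose and 4 fell, and in siMock 3 rose and 4 fell (medians -0.03 and -0.06). KMT2C, listed as MLL3 and encoding an enhancer methylase, rose by 1.06 ± 0.16 in siACL and 1.41 ± 0.16 in siMock. KMT2B (listed as MLL4), a promoter methylase, differed by -0.27 ± 0.04 in siACL and -0.27 ± 0.04 in siMock. Core subunit genes moved both ways: RBBP5 had 0.19 ± 0.04 in siACL and 0.25 ± 0.04 in siMock, and DPY30 -0.08 ± 0.02 and -0.16 ± 0.02. Of 27 measured Polycomb genes (30 listed), 11 rose and 9 fell in siACL, and 8 rose and 12 fell in siMock (median -0.01 in each). PHF19, an accessory protein of the H3K27 methylase complex, fell by 0.64 in siACL (adjusted p = 9.6e-11) and 0.65 in siMock (adjusted p = 3.7e-11), and JARID2, another such protein, rose by 0.41 ± 0.03 and 0.42 ± 0.03. PCGF5, a ring finger protein of Polycomb complexes, differed by -0.61 ± 0.20 in siACL and -1.07 ± 0.20 in siMock, and PHC3, a Polyhomeotic homologue, by -0.37 ± 0.15 and -0.69 ± 0.15.

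Caudal and retinoid genes act upstream of HOX genes in the embryo, and 9 of 20 were measured. In each arm 2 rose and 4 fell (medians -0.06 in siACL and -0.10 in siMock). CDX2, the caudal factor of intestinal epithelium, had -0.10 ± 0.04 (adjusted p = 0.047) in siACL and -0.23 ± 0.04 (adjusted p = 0.00011) in siMock. CYP26B1, which degrades retinoic acid, rose by 0.53 ± 0.03 in siACL and 0.46 ± 0.03 in siMock, and CRABP2, a carrier of retinoic acid, by 0.46 ± 0.02 and 0.47 ± 0.02. ALDH1A3, which makes retinoic acid, had -0.33 ± 0.02 in siACL and -0.58 ± 0.02 in siMock.

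Homeobox genes outside the clusters were also read. Of 61 listed, 32 were measured: 16 rose and 4 fell in siACL, and 16 rose and 5 fell in siMock (medians 0.26 and 0.30). IRX6 (1.18 ± 0.41), OTX1 (1.16 ± 0.31) and GBX2 (1.01 ± 0.31) rose in siMock, and TLX3 (-1.03 ± 0.25) fell. In siACL OTX1 rose by 0.84 ± 0.31 (adjusted p = 0.035), and the differences of IRX6 (0.86 ± 0.41, adjusted p = 0.1), GBX2 (0.38 ± 0.31, adjusted p = 0.36) and TLX3 (-0.12 ± 0.25, adjusted p = 0.75) did not pass.

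Genes next to the clusters, all within 4 protein-coding genes of them, were compared to see whether flanking genes moved with their cluster. Of 23 listed, 17 were measured: 8 rose and 3 fell in siACL, and 8 rose and 6 fell in siMock (medians -0.01 and 0.01). Beside HOXB, SKAP1, the nearest gene and an adaptor of immune cells, differed by -0.12 ± 0.03 (adjusted p = 0.004) in siACL and -0.23 ± 0.03 (adjusted p = 4e-06) in siMock. CBX1, which encodes a heterochromatin protein, differed by -0.03 ± 0.03 (adjusted p = 0.35) in siACL and -0.26 ± 0.03 (adjusted p = 8.6e-08) in siMock. On the other side TTLL6, a tubulin-modifying enzyme gene, rose by 1.20 ± 0.38 in siACL and 1.04 ± 0.38 in siMock, and the autophagy receptor gene CALCOCO2 had -0.01 ± 0.04 and 0.15 ± 0.04. Beside HOXC, CALCOCO1 rose by 0.99 ± 0.10 in siACL and 1.31 ± 0.10 in siMock, and CBX5, another heterochromatin protein gene, had -0.54 ± 0.04 and -0.56 ± 0.04. Beside HOXA, the adaptor gene SKAP2 rose by 0.55 ± 0.03 in siACL and 0.39 ± 0.03 in siMock. Flanking genes thus moved both ways on the HOXB and HOXC sides, where the central HOX members fell.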

How the data were processed

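The authors deposited a table of score values, 20747 entries from -3.90 to 3.90 on 24 arrays, which equal normal scores of ranks within each array (largest gap 0.00074). How probes were chosen, corrected and normalized, and with which software, is not stated in the labels or headers. The 48 columns of a second deposited table (24 of signal) are tied to no sample label and were not used, apart from their gene annotation; signal over background is therefore unknown, and whether probes of one HOX gene detect another was not tested. Total RNA was prepared with Trizol and labelled with an Ambion kit, per the labels.

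Each of 18172 symbols was tested and 2575 entries without one were left out. The 26 members matched RefSeq, 25 by accession, 1 with a changed symbol. limma 3.58.1 in R 4.3.3 fitted 1 mean per group over all 24 arrays with no block and with Benjamini-Hochberg adjustment (threshold 0.05) in each of 13 comparisons and an F test over the 8 groups; 16 residual and 1.05 prior degrees of freedom. Scripts were tested on simulated data. Arrays of a group correlated at 0.928 to 0.955 over all genes and 0.822 to 0.966 over members. The number of arrays limits the precision.

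Members and lists (paralogue classes, TALE, MLL and COMPASS, Polycomb, caudal and retinoid, other homeobox, neighbours, cell type markers) were chosen with earlier results of these data known, and part of the leukocyte marker result is not reported here. Values per array are given for the 12 members with the largest F, up to 5 called members with the largest difference in each comparison (all where 3 or fewer), and the member with the highest mean score of each cluster; of each list, up to 4 called genes with the largest difference at 5 mM, or all where 5 or fewer. Alternatives were a fit restricted to the groups of a comparison, weights per array, a trended and robust variance prior, a replicate block, a filter that drops the lowest of 4 equal bins of genes by mean score, percentile ranks, and leaving out each array.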

Additional observations from a re-analysis of the deposited data

Results flagged for a closer look

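The change with butyrate differed between siACL and siMock cells, by limma's test of that difference, in 13 cases, all with the siACL response less the siMock response above 0. Over all genes 3.1%, 6.19% and 8.85% passed at 0.5, 2 and 5 mM. Positive calls were 1.39%, 3.46% and 5.5% of all genes, and negative ones 1.72%, 2.73% and 3.35%. Some members count at more than 1 dose, and the doses share the same untreated arrays. At 0.5 mM these were HOXA10 (0.17) and HOXB5 (0.14). At 2 mM they were HOXB8 (0.52), HOXB5 (0.45), HOXB4 (0.43) and HOXB7 (0.17). At 5 mM they were HOXB4 (0.50), HOXB5 (0.40), HOXB8 (0.28), and HOXA5, HOXA9, HOXA10 and HOXB7 with 0.16 each. Without single arrays the calls of HOXB4, HOXB5 and HOXB8 at 2 and 5 mM and of HOXA9 at 5 mM all held. That of HOXA9 was lost with only the groups compared in the fit (adjusted p = 0.095). The other 6 were lost without most single arrays: 10 of 12 for each at 0.5 mM, 9 of 12 for HOXB7 at 2 mM and at 5 mM and for HOXA5, and 8 of 12 for HOXA10 at 5 mM. Those at 0.5 mM and that of HOXA5 were lost with the replicate block too.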

How the results depend on the processing

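Of 95 calls of members, 51 held in every alternative run and 62 without each array. No call changed sign, which is not separate support. The restricted fit, the variance prior, the filter and the replicate block leave each difference of group means as it was. The share of all genes called was not counted in the alternatives, so the member counts below have no background beside them. Restricting each fit to the groups it compares leaves fewer arrays to estimate the spread. Calls against untreated cells at 0.5 mM were then 0 in siACL (1 with all 24 arrays) and 4 in siMock (9). In siACL against siMock they were 0 (4) without butyrate, 2 (5) at 0.5 mM, 7 (11) at 2 mM and 3 (6) at 5 mM, and for the siACL response less the siMock response 0 (2) at 0.5 mM and 3 (7) at 5 mM. Array weights gave 3 (1) in siACL at 0.5 mM; the cause was not tested. Leaving out the lowest of 4 equal bins of genes by mean score keeps 17 members and gave 2 (4) in siACL at 2 mM and 9 (14) in siMock at 5 mM. All 74 calls of the kept members held, so these lower counts come from the members left out. A trend and robust variance prior and percentile ranks moved no count by over 1.5 times. Leaving out each array in turn gave 1 to 2, 2 to 4 and 13 to 16 calls in siACL at 0.5, 2 and 5 mM, and 5 to 8, 11 to 13 and 11 to 14 in siMock. In siACL against siMock it gave 1 to 4 without butyrate, 4 to 6 at 0.5 mM, 9 to 11 at 2 mM and 4 to 6 at 5 mM. For the siACL response less the siMock response it gave 0 to 1, 3 to 4 and 4 to 7, and for the F test 17 to 19. Replicate numbers showed no pairing in deviations from group means over all genes. Same-numbered arrays correlated at -0.04 to 0.03, and no group pair of 28 had all correlations over 0.1. Of 24 arrays, 7 correlated best with their own number. Low-scoring genes have the largest spread and weigh most in these correlations, and pairing among the other genes alone was not tested. With the replicate number as a block the siACL response less the siMock response at 0.5 mM gave 0 calls (2), and no other count moved by over 1.5 times. Background correction and normalization of scanner values, and slide as a block, were not run, since no column or slide is tied to a sample. Signal over background is unknown, so the 9 members of the lowest bin could not be checked against it.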
